A study of Mus musculus with 12 samples.

Results

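Interferon regulatory factors (IRFs) were followed at the level of their mRNA in bone marrow-derived macrophages (BMDMs) of mice. The genes *Irf1*, *Irf2*, *Irf3*, *Irf4*, *Irf5*, *Irf7*, *Irf8* and *Irf9* were found by the accession of their array probes, which gave 8 of 32301 genes or transcripts and 11 of 41174 probes. IRFs are transcription factors that bind a shared DNA element in the genes of interferons and of proteins induced by interferons. IRF3, IRF5 and IRF7 lie latent until Toll-like receptors or sensors of nucleic acid lead to their phosphorylation, and IRF9 joins STAT2 in the complex ISGF3, which carries the signal of type I interferon to its targets. IRF1 and IRF8 serve the response of macrophages to interferon-γ (IFNγ), IRF2 competes with IRF1 for its sites, and IRF4 is known in macrophages for its part in the response to interleukin-4 (IL-4).

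The study compared wild-type (WT) BMDMs with BMDMs of *Keap1* flox/flox::*LysM*-Cre mice (KpCKO), in which Cre driven by the *lysozyme M* locus removes *Keap1* in myeloid cells and the transcription factor Nrf2 is thereby activated. All mice were C57BL/6 and 8 weeks old, and marrow was grown for 7 days with M-CSF, the growth factor of macrophages. Cells were then left untreated (Con), stimulated with LPS and IFNγ (M1), or stimulated with IL-4 (M2), and both stimulations lasted 6 h. Each of the 6 groups had 2 one-colour Agilent arrays, one from each of 2 independent cultures, and each culture held 1 WT mouse and 1 KpCKO mouse. Both mice of culture 1 were male and both mice of culture 2 were female. A group is therefore 2 mice, and culture and sex cannot be told apart. Each of the 3 slides held the 4 arrays of a single stimulus, so stimulus and slide cannot be told apart, whereas the genotypes were compared within a slide.

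Levels are log2 intensities relative to the 75th percentile of the array, so that 0 marks the 75th percentile and a difference of 1 is a doubling. A gene is said to have risen, fallen or differed where limma's test, with culture as a block, gave a Benjamini-Hochberg adjusted p under 0.05 over all genes tested, which were between 22376 and 22391 in a comparison. With 2 arrays a group, the smallest two-sided p of an exact permutation test is 0.3333, and that test was not used. *Keap1* itself was lower in KpCKO, by a log2 difference from WT of −1.46 (SE 0.24, adjusted p = 0.0337) in Con, −1.71 (SE 0.24, adjusted p = 0.00773) in M1 and −1.81 (SE 0.24, adjusted p = 0.0162) in M2. The sources used here do not say whether its probe lies in the deleted part of the gene. Between 59.3 and 71.4% of the probes were well above background on each array, and no spot was saturated. The intensity at the 75th percentile, to which levels were set, was 966 to 1166 on the Con and M2 arrays. On the M1 arrays it was lower, at 757 and 548 in WT and 906 and 787 in KpCKO. Its part in the M1 differences was not tested. Of 8 macrophage markers, 7 had a probe, and each of these was well above background on 12 of 12 arrays. Their summed linear level was below that of WT in the KpCKO arrays of all 3 stimuli. It was 405 to 469 against 583 to 639 in Con and 560 to 662 against 833 to 1041 in M1. In M2 it was 414 to 452 against 488 to 545. *Cd14*, which was itself lower in KpCKO under each stimulus, is part of this sum, and no sum was made without it. The B cell markers *Ms4a1* and *Pax5*, the T cell marker *Cd3d* and the neutrophil marker *Elane* were well above background on 0 of 12 arrays. All 6 stromal markers, in contrast, were well above background on 12 of 12 arrays. Their sums were 55.8 to 69.6 in M1 and 22.9 to 54.2 in Con and M2. *Vcam1*, which is part of these sums, ran from a log2 level of −2.62 to 5.18 over the 12 arrays. Neutrophil markers summed to between 3.15 and 16.5, B cell markers to at most 1.0 and T cell markers other than *Lck* to at most 0.572. In bulk RNA, fewer cells of a type and less RNA per cell cannot be told apart.

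The 300-base windows around the transcription start sites of 5 of these genes are shown, since their mRNA moved most with M1 (*Irf1*, *Irf7*, *Irf8*) or M2 (*Irf4*) or was lower in KpCKO (*Irf7*, *Irf8*, *Irf9*). They are RefSeq sequences of the build GRCm38.p6, written 5′ to 3′ on the strand of the gene, and for *Irf1*, *Irf8* and *Irf9*, which have 2 windows each, the upstream window is given. Capitals mark letters that match an element. The elements searched on both strands were the γ-activated site of genes induced by IFNγ (TTCNNNGAA), the STAT6 element (TTC and GAA with 4 bases between), the antioxidant response element bound by Nrf2 (ARE, as TGACNNNGC or TGAGNNNGC), the interferon-stimulated response element (GAAA and GAAA with 2 bases between) and the NF-κB element.
Irf1, chr11:53769764-53770063, plus strand: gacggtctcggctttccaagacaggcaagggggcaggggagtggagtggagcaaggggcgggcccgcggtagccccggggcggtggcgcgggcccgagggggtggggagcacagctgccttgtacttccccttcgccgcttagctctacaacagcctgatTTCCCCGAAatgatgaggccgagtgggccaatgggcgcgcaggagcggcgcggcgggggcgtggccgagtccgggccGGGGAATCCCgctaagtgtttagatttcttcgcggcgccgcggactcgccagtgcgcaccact
Irf8, chr8:120736108-120736407, plus strand: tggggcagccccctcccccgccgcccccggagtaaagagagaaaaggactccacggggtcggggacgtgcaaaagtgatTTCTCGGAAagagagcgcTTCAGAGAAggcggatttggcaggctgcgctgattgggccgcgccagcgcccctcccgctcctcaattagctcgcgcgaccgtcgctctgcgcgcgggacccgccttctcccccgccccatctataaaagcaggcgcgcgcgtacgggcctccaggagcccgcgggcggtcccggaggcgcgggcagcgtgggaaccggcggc
Irf7, chr7:141266375-141266674, minus strand: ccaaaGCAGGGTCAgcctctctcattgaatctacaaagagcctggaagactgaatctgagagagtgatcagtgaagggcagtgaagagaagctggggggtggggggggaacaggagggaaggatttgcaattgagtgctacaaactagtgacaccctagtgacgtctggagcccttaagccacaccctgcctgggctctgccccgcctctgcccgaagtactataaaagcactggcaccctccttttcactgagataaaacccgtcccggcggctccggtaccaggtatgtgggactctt
Irf9, chr14:55603735-55604034, plus strand: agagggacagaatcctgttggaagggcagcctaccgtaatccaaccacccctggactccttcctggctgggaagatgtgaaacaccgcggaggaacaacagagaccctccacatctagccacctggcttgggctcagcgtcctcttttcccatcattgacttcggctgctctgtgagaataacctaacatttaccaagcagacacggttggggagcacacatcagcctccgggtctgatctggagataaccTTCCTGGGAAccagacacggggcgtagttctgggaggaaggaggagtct
Irf4, chr13:30748983-30749282, plus strand: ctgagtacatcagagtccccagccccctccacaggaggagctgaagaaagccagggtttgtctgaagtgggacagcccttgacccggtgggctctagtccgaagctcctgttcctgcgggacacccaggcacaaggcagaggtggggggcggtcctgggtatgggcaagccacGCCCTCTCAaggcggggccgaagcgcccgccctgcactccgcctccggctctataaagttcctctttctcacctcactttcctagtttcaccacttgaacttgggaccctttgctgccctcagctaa

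The window of *Irf1* held a γ-activated site from −90 to −82 of the start site and an NF-κB element from −13 to −4, and that of *Irf8* held 2 γ-activated sites, from −171 to −163 and from −153 to −145. Of the 32851 windows of all genes in the table, 8.30% held a γ-activated site and 8.46% an NF-κB element. The window of *Irf7* held an ARE of the TGAC form from −245 to −237, as did 12.4% of all windows. The window of *Irf4* held an ARE of the TGAG form from −77 to −69, as did 17.6% of all windows. The window of *Irf9* held a STAT6 element from 1 to 10, as did 6.95% of all windows. The interferon-stimulated response element, found in 3.44% of all windows, was present in 1 of the 11 windows of the 8 genes, that of *Irf2*, whereas both windows of *Irf9* and that of *Irf7* lacked these letters. An ARE of either form was found in 5 of the 11 windows, and in 27.8% of all windows. These were the windows of *Irf3*, *Irf4* and *Irf7* and the downstream windows of *Irf1* and *Irf8*, which are not shown. That of *Irf8* was of the TGAC form, from −25 to −17. Letters that match are a description and do not show binding.

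M1 stimulation raised 6 of the 8 IRF genes in WT cells and the same 6 in KpCKO cells, namely *Irf1*, *Irf2*, *Irf5*, *Irf7*, *Irf8* and *Irf9*. Of all genes tested, 63.1% passed the test in WT and 50.1% in KpCKO, and 34.5% and 24.8% were higher, and the count has to be read against these shares. The median log2 difference was 1.18 for the 8 genes and 0.13 for all genes in WT, and 1.05 and 0.029 in KpCKO. The sizes set the IRF genes apart from each other. *Irf7*, *Irf1* and *Irf8* rose between 6.51-fold and 37.2-fold, whereas *Irf2*, *Irf5* and *Irf9* rose between 1.68-fold and 2.37-fold.

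**Figure D1:**
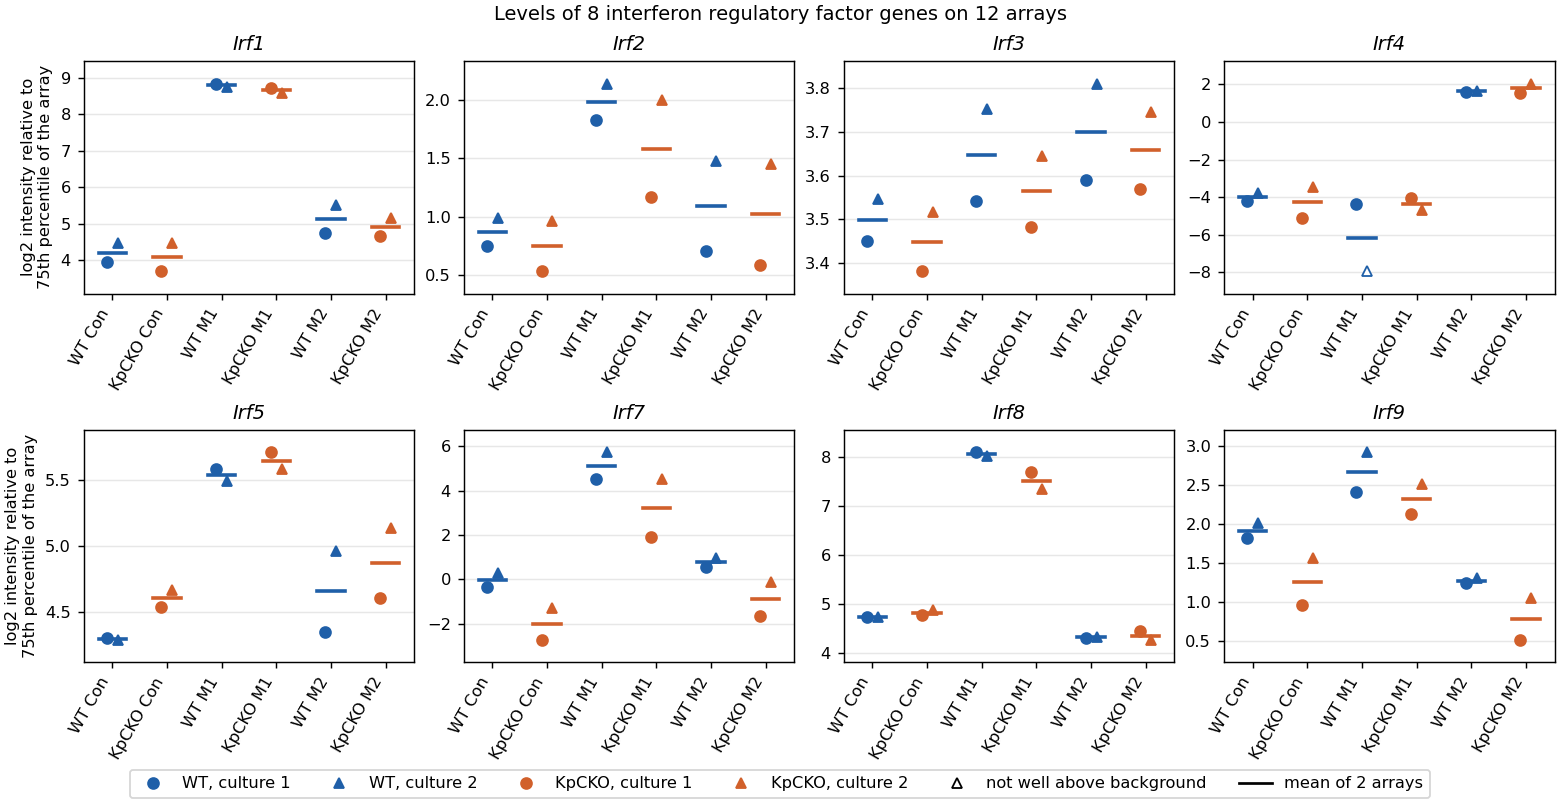
Levels of the 8 IRF genes on the 12 arrays, 1 panel per gene, with the log2 intensity relative to the 75th percentile of the array on the vertical axis (each panel has its own range) and the 6 groups on the horizontal axis. Points are single arrays, shaped by culture and coloured by genotype, bars are the means of 2 arrays, and the open point marks the *Irf4* signal at −7.94 that was not well above background.

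*Irf1*, the activator through which IFNγ reaches many of its targets, stood at 3.95 and 4.48 in WT Con (cultures 1 and 2) and at 8.84 and 8.74 in WT M1. In KpCKO it stood at 3.71 and 4.47 in Con and at 8.73 and 8.59 in M1. Both M1 groups lay far above both Con groups with no overlap, and the rise was 4.58 (SE 0.26, 23.9-fold, adjusted p = 1.62e-05) in WT and 4.57 (SE 0.26, 23.8-fold, adjusted p = 2.95e-05) in KpCKO. A second, dimmer probe of *Irf1* rose by 5.30 in WT and 5.16 in KpCKO. In M2, *Irf1* lay at 4.76 and 5.51 in WT and at 4.67 and 5.17 in KpCKO, above Con of the same culture in each case. These differences of 0.92 (SE 0.26) and 0.83 (SE 0.26) did not pass the test, with adjusted p = 0.0513 in WT and 0.0888 in KpCKO. The WT value passed in 4 of the 17 alternative analyses, with adjusted p between 0.0281 and 0.408 over all of them.

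*Irf8*, a factor of the macrophage and dendritic cell lineages that pairs with PU.1 and with IRF1, stood at 4.73 and 4.73 in WT Con and at 4.77 and 4.87 in KpCKO Con. In M1 it reached 8.10 and 8.03 in WT and 7.70 and 7.35 in KpCKO. The M1 arrays of both genotypes were higher than all others, and those of WT were higher than those of KpCKO. The rise was 3.33 (SE 0.13, 10.1-fold, adjusted p = 5.45e-06) in WT and 2.70 (SE 0.13, 6.51-fold, adjusted p = 1.65e-05) in KpCKO. In M2, *Irf8* lay at 4.31 and 4.34 in WT and at 4.44 and 4.27 in KpCKO, below each Con array. The M2 differences of −0.41 (SE 0.13, adjusted p = 0.0681) and −0.47 (SE 0.13, adjusted p = 0.0646) did not pass the test, and each of them passed in 4 of 17 alternative analyses, among them quantile normalization (−0.54 and −0.59).

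*Irf2*, which encodes the competitor of IRF1, rose by 1.12 (SE 0.19, 2.17-fold, adjusted p = 0.00177) in WT M1 and by 0.84 (SE 0.19, 1.79-fold, adjusted p = 0.00886) in KpCKO M1. Its levels were 0.75 and 0.99 in WT Con, 1.83 and 2.14 in WT M1, 0.53 and 0.96 in KpCKO Con, and 1.17 and 2.0 in KpCKO M1. M1 and Con did not overlap within a genotype, and culture 2 was higher than culture 1 in each of the 6 groups. Without culture 2 of KpCKO Con or of KpCKO M1, the rise in KpCKO was 0.75 or 0.68, with adjusted p = 0.0630 and 0.0646. In M2 the differences were 0.22 (adjusted p = 0.459) in WT and 0.28 (adjusted p = 0.399) in KpCKO.

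*Irf7*, the factor that type I interferon itself induces and that drives the genes of interferon-α, had the largest M1 difference of the 8 genes when each was read by its brightest probe. It stood at −0.35 and 0.30 in WT Con and at 4.51 and 5.73 in WT M1. In KpCKO it stood at −2.72 and −1.29 in Con and at 1.91 and 4.52 in M1. M1 and Con did not overlap in either genotype, and culture 2 was higher than culture 1 in each group. The rise was 5.14 (SE 0.47, 35.3-fold, adjusted p = 0.000115) in WT and 5.22 (SE 0.47, 37.2-fold, adjusted p = 0.000183) in KpCKO. In M2, *Irf7* lay at 0.57 and 0.97 in WT and at −1.65 and −0.11 in KpCKO. These levels were above Con of the same culture in each case, by 0.80 (SE 0.47, adjusted p = 0.294) in WT and 1.12 (SE 0.47, adjusted p = 0.187) in KpCKO, which did not pass the test.

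*Irf9*, the DNA-binding subunit of ISGF3, was the gene that rose with M1 stimulation and fell with M2 stimulation in WT cells. It stood at 1.82 and 2.01 in WT Con, at 2.41 and 2.92 in WT M1 and at 1.23 and 1.3 in WT M2. In KpCKO it stood at 0.95 and 1.56 in Con, 2.13 and 2.50 in M1, and 0.51 and 1.04 in M2. The 3 stimuli did not overlap in WT, while Con and M2 overlapped in KpCKO. M1 raised it by 0.75 (SE 0.15, 1.68-fold, adjusted p = 0.00426) in WT and 1.06 (SE 0.15, 2.09-fold, adjusted p = 0.00121) in KpCKO. M2 lowered it by −0.65 (SE 0.15, 1.56-fold, adjusted p = 0.0310) in WT, and the KpCKO difference of −0.48 (SE 0.15) did not pass, with adjusted p = 0.0973. The second probe of *Irf9* gave −0.41 (adjusted p = 0.0912) for WT M2. The call in WT M2 was lost in 8 of 17 alternative analyses, among them those without culture 1 of WT Con (−0.53), culture 2 of WT Con (−0.76) or culture 2 of WT M2 (−0.46).

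*Irf5*, which acts downstream of Toll-like receptors in the induction of inflammatory cytokines, stood at 4.31 and 4.29 in WT Con and 5.59 and 5.50 in WT M1. In KpCKO it stood at 4.54 and 4.67 in Con and 5.71 and 5.59 in M1. The 4 M1 arrays were the highest of the 12. The rise was 1.24 (SE 0.21, 2.37-fold, adjusted p = 0.00184) in WT and 1.04 (SE 0.21, 2.06-fold, adjusted p = 0.00563) in KpCKO, and under quantile normalization it was 0.53 (adjusted p = 0.0793) and 0.55 (adjusted p = 0.0855). In M2 its differences were 0.36 (adjusted p = 0.286) in WT and 0.27 (adjusted p = 0.471) in KpCKO.

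*Irf3*, the constitutive factor that is activated by phosphorylation rather than by a rise of its mRNA, was the steadiest of the 8 genes. Its 12 levels lay between 3.38 and 3.81. The M1 differences of 0.15 (SE 0.086, adjusted p = 0.169) in WT and 0.12 (SE 0.086, adjusted p = 0.303) in KpCKO did not pass the test, and under quantile normalization they turned to −0.34 (adjusted p = 0.00968) and −0.23 (adjusted p = 0.0528). The M2 differences were 0.20 (adjusted p = 0.158) and 0.21 (adjusted p = 0.176). In the order of its group means, from KpCKO Con at 3.45 to WT M2 at 3.70, the arrays of each neighbouring pair of groups overlapped.

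M2 stimulation moved the 8 genes in another way. *Irf4* rose in both genotypes and *Irf9* fell in WT, while no further IRF gene passed the test in either genotype. This was 2 of 8 genes in WT, where 16.8% of all genes passed, and 1 of 8 in KpCKO, where 10.2% passed. *Irf4* is the IRF that is known to be induced by IL-4 in macrophages, and its mRNA was dim without IL-4. It stood at −4.19 and −3.76 in WT Con and at −5.11 and −3.44 in KpCKO Con, and in M2 it reached 1.62 and 1.63 in WT and 1.53 and 2.04 in KpCKO. All 4 M2 arrays lay far above the other 8 arrays. The rise was 5.60 (SE 1.08, 48.4-fold, adjusted p = 0.0166) in WT and 6.06 (SE 1.08, 66.7-fold, adjusted p = 0.0200) in KpCKO. The test lost this call without any 1 of the 4 arrays of either comparison, at rises between 5.19 and 6.01 in WT and between 4.90 and 7.22 in KpCKO.

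In M1, *Irf4* stood at −4.37 and −7.94 in WT and at −4.06 and −4.68 in KpCKO. The WT array of culture 2 was not well above background, and the other 3 arrays lay in the range of Con. The difference from Con was −2.18 (SE 1.08, adjusted p = 0.116) in WT and −0.10 (SE 1.08, adjusted p = 0.948) in KpCKO. Without culture 1 of WT M1, which leaves the array below background alone, the WT value was −4.17 and passed the test (adjusted p = 0.00223).

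**Figure D2:**
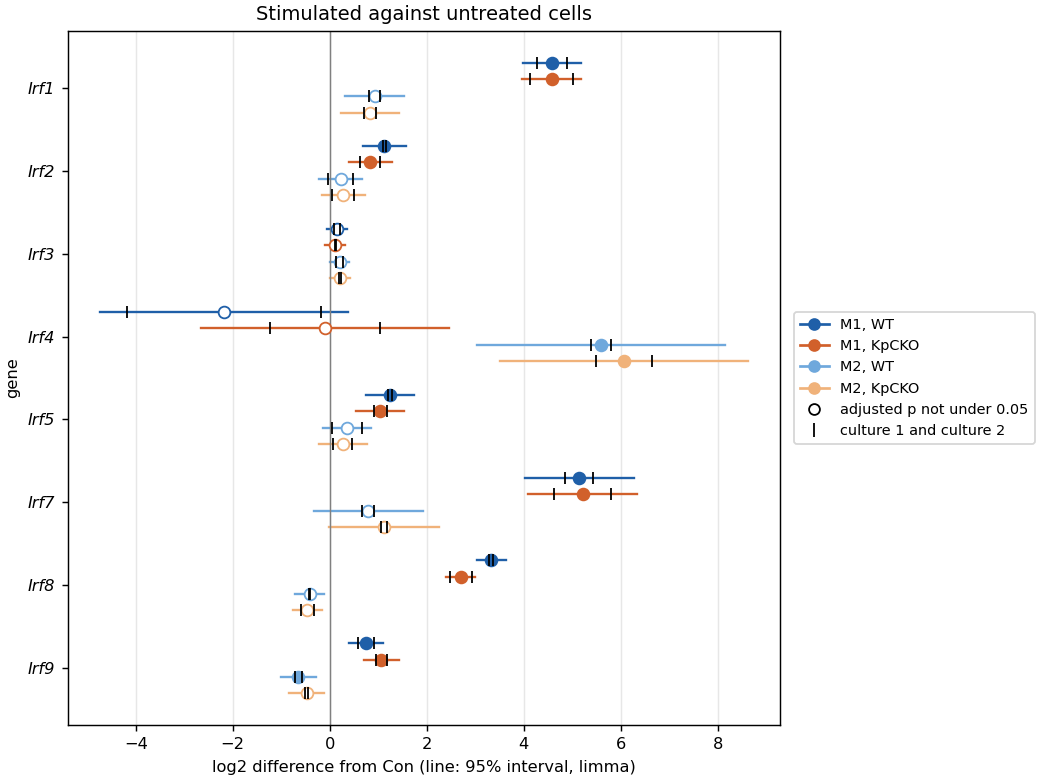
Differences of M1 and M2 from Con for the 8 IRF genes (vertical axis) on the log2 scale (horizontal axis), in WT and KpCKO. Points are limma estimates with 95% intervals, filled where the adjusted p was under 0.05, and short vertical strokes are the cultures. *Irf1*, *Irf7* and *Irf8* lie between 2.70 and 5.22 with M1, and *Irf4* lies at 5.60 and 6.06 with M2.

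Loss of *Keap1* was set against WT within each stimulus, to learn whether IRF mRNAs differ where Nrf2 is activated. *Irf7* was the IRF gene with the largest difference. Its mRNA was lower in the KpCKO mouse of both cultures under each stimulus, 6 of 6 pairs, and *Irf9* was also lower in 6 of 6 pairs. So were *Irf1*, *Irf2* and *Irf3*, by smaller differences that did not pass the test over the 3 stimuli. The share of all genes that were lower in 6 of 6 pairs was not counted. The pairs are the same 2 mice of each genotype under 3 stimuli, and the model holds no term for the mouse. All tests over the 3 stimuli thus treat the arrays of a mouse as independent apart from culture. Over the 3 stimuli together the difference was −1.84 (SE 0.27, 3.59-fold, adjusted p = 0.00615) for *Irf7* and −0.50 (SE 0.087, 1.41-fold, adjusted p = 0.0113) for *Irf9*. Both calls were lost without culture as a block, with adjusted p = 0.0750 for *Irf7* and 0.107 for *Irf9*, and that of *Irf9* was lost with a normexp background correction (−0.39, adjusted p = 0.0633). These were 2 of 8 genes, while 17.1% of all genes passed, 8.6% higher and 8.5% lower. The sums of macrophage markers given above, which include *Cd14*, were lower in KpCKO as well. Their part in these differences was not tested.

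Within single stimuli, 0 of the 8 genes differed in Con, where 2.21% of all genes did (1.38% higher, 0.826% lower), and the adjusted p was 0.105 for *Irf7* (−1.97, SE 0.47) and 0.0929 for *Irf9* (−0.66, SE 0.15). In Con, 2 of the 8 genes had an unadjusted p under 0.05 by limma, and the methods' t-test gave 1 at its unadjusted threshold. That test is the unpaired t-test that the paper's methods name for its BMDM data unless otherwise stated. On its arrays the paper instead called genes that changed more than 2-fold in both of 2 mice or cultures. This rule was not used for the calls here. In M1, *Irf7* (−1.90, SE 0.47, 3.73-fold, adjusted p = 0.0406) and *Irf8* (−0.54, SE 0.13, 1.46-fold, adjusted p = 0.0343) were lower in KpCKO. These were 2 of 8 genes, against 16.0% of all genes, of which 1658 were higher and 1917 lower, or 2025 and 1345 under quantile normalization. In M2, 0 of 8 genes differed by limma, where 1.93% of all genes did (1.28% higher, 0.643% lower), and the adjusted p was 0.180 for *Irf7* (−1.65, SE 0.47) and 0.210 for *Irf9* (−0.49, SE 0.15). In M2 as well, 2 of the 8 genes had an unadjusted p under 0.05 by limma, and 0 did by the methods' t-test.

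The array values show how the genotypes lay. For *Irf7*, WT and KpCKO did not overlap in Con or in M2, and in M1 the KpCKO array of culture 2 (4.52) lay at the level of the WT array of culture 1 (4.51). In M1 the difference was −2.60 in culture 1 and −1.20 in culture 2, in Con −2.36 and −1.59, and in M2 −2.22 and −1.09. The gap was thus wider in culture 1, the male mice, in each stimulus. For *Irf9* the gap was −0.86 and −0.45 in Con, −0.28 and −0.41 in M1, and −0.72 and −0.25 in M2. The second probe of *Irf9* gave −0.56 over the 3 stimuli (adjusted p = 0.00574). For *Irf8* in M1 the gap was −0.40 and −0.68 without overlap, and its second probe gave −0.57 with adjusted p = 0.0694.

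The M1 calls of *Irf7* and *Irf8* were each lost in 10 of 17 alternative analyses with the direction kept, at −1.59 (adjusted p = 0.0548) and −0.27 (adjusted p = 0.149) under quantile normalization and with adjusted p = 0.255 and 0.0738 without culture as a block. Without culture 1 or culture 2 of WT M1 both calls were lost (*Irf7* −1.85 and −1.95, *Irf8* −0.54 and −0.54), as was that of *Irf7* without culture 1 of KpCKO M1 (−1.12) and that of *Irf8* without culture 2 of KpCKO M1 (−0.38).

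The other 5 genes did not differ between the genotypes in any of these 4 tests. For *Irf1* the log2 difference was −0.12 in Con, −0.13 in M1 and −0.22 in M2, and over the 3 stimuli −0.16 with a 95% interval from −0.51 to 0.19. For *Irf3* the interval over the 3 stimuli ran from −0.18 to 0.059, the narrowest of the 8 genes, and for *Irf2* it ran from −0.46 to 0.057. *Irf5* was higher in KpCKO in 6 of 6 pairs of these same mice, by 0.21 over the 3 stimuli (interval −0.077 to 0.50, adjusted p = 0.276). For *Irf4* the interval was widest, from −0.93 to 2.02. In M1 the *Irf4* difference of 1.78 (SE 1.08, adjusted p = 0.283) rested on the WT array below background, and it was −0.21 without that array and 3.77 (adjusted p = 0.0176) without the other WT M1 array, which also gave a call over the 3 stimuli (1.21, adjusted p = 0.0464).

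**Figure D3:**
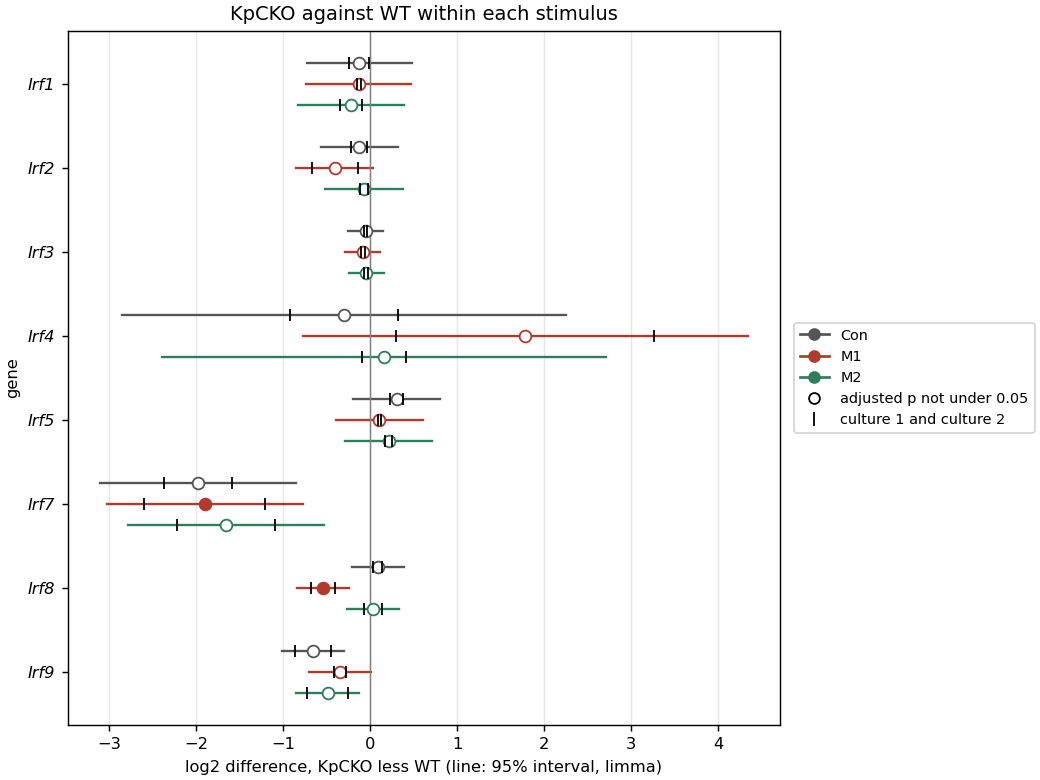
Differences between KpCKO and WT for the 8 IRF genes (vertical axis) within Con, M1 and M2 on the log2 scale (horizontal axis). Points are limma estimates with 95% intervals, filled where the adjusted p was under 0.05, and short vertical strokes are the cultures. *Irf7* lies between −1.65 and −1.97 in the 3 stimuli, and the filled points are *Irf7* and *Irf8* in M1.

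The difference of the responses was tested directly, as the response of KpCKO less that of WT. For M1, 0 of the 8 genes passed the test, where 0.0715% of all genes did (0.0447% higher, 0.0268% lower), 1 gene had an unadjusted p under 0.05, and that gene was *Irf8* (−0.63, SE 0.18, 95% interval −1.05 to −0.20, adjusted p = 0.192). For *Irf7* the value was 0.075 (SE 0.67) with an interval from −1.52 to 1.67, so that *Irf7* was lower in KpCKO without a detectable change in its M1 response at this number of arrays. For *Irf1* the interval was −0.86 to 0.85. For M2, 0 of the 8 genes passed by limma, with 0.00893% of all genes and 0 at an unadjusted p under 0.05, and the interval for *Irf4* was −3.15 to 4.07. The groups ranked in the same order of stimuli, M1 above M2 above Con, for *Irf1* in both genotypes, and M1 above Con above M2 for *Irf8* and *Irf9* in both.

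Genes around the IRFs were followed in 6 lists. The receptors and kinases that lead to ISGF3 and to IRF1 moved apart from each other in M1. Of 10 genes of the interferon receptors and the JAK-STAT pathway, 6 rose and 3 fell in WT, and 5 rose and 3 fell in KpCKO, where 28.6% and 25.4% of all genes fell. The 8 calls in KpCKO were 5 without culture 1 of KpCKO Con or of KpCKO M1, and 4 without culture 2 of KpCKO M1. *Jak2*, a kinase of the IFNγ receptor, rose by 4.79 in WT and 3.63 in KpCKO, and *Stat2*, the partner of IRF9, rose by 3.67 and 3.52. The receptor chains *Ifngr1* (−0.99 and −0.68) and *Ifnar1* (−0.61 and −0.65) fell. In WT M2, 2 of 10 rose and 0 fell, *Jak2* (1.98) and *Ifngr2* (0.43), where 8.62% of all genes rose, and the count was 1 with any 1 of the 4 arrays left out. In KpCKO M2, where 5.66% of all genes rose, *Jak2* rose by 1.93. Between the genotypes, *Jak2* was lower in KpCKO M1 (−1.21, SE 0.19, adjusted p = 0.0118), the only one of the 10 genes to pass there, and 8.57% of all genes were lower. The call was lost without culture 2 of WT M1 or culture 1 of KpCKO M1.

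Of 18 genes that lead from Toll-like receptors and nucleic acid sensors to IRF3, IRF5 and IRF7, 10 rose and 5 fell in WT M1, and 11 rose and 5 fell in KpCKO M1. Of all genes, 34.5% rose and 28.6% fell in WT, and 24.8% rose and 25.4% fell in KpCKO, so that the falls were near the share of all genes. *Ifih1*, a sensor of double-stranded RNA, rose by 4.80 and 4.16, and *Sting1*, the adaptor of cytosolic DNA sensing, rose by 2.85 and 2.59. *Tlr4*, the receptor of LPS, fell by 1.73 in WT and by 0.84 in KpCKO, and *Mavs*, the adaptor of RNA sensing, fell by 1.31 and 1.17. In M2, *Ticam1*, the adaptor between TLR4 and IRF3, was the 1 gene that rose (0.49 and 0.51), and *Cd14*, the co-receptor of LPS, was the 1 that fell (−2.24 and −1.91), and the count of 2 was 1 in each genotype with any 1 of its 4 arrays left out. *Cd14* was also lower in KpCKO than in WT in Con (−1.18, adjusted p = 0.00643), M1 (−1.33, adjusted p = 0.00187) and M2 (−0.86, adjusted p = 0.0227). In all, 1 of the 18 genes was lower in Con, 5 in M1 with *Ifih1* (−1.17, adjusted p = 0.0351) among them, and 1 in M2, while 0.826%, 8.57% and 0.643% of all genes were. The count in M1 was 1 without culture 2 of WT M1 or culture 1 of KpCKO M1, that in Con was 0 without culture 1 of WT or KpCKO Con, and that in M2 was 0 with any 1 of the 4 arrays left out. The calls of *Ifih1* in M1 and *Cd14* in M2 were each lost in 10 of 17 alternative analyses.

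Of 14 partners and co-regulators of IRFs, 8 rose and 3 fell in WT M1, and 7 rose and 3 fell in KpCKO M1, beside the shares of all genes given for the sensors. *Batf2*, an AP-1 family partner of IRF1, rose by 7.03 and 7.54, and the histone demethylase gene *Kdm6b* by 4.57 and 3.34. The IRF2-binding proteins *Irf2bpl* (−4.53 and −3.33) and *Irf2bp2* (−2.73 and −1.67) fell. In M2, 4 rose and 2 fell in WT, and 4 rose and 1 fell in KpCKO, led by *Batf3* (5.23 and 4.54), an AP-1 family partner of IRF4 and IRF8, where 8.62% of all genes rose and 8.2% fell in WT and 5.66% and 4.52% in KpCKO. With any 1 of the arrays compared left out, the count in M2 went from 6 to 2 in WT, and from 5 to 1 in KpCKO, or to 2 without culture 1 of KpCKO Con. In M1 the genotypes differed in 4 of these 14 genes. *Kdm6b* (−1.58, SE 0.21, adjusted p = 0.00650) and the acetyltransferase gene *Ep300* (−0.48, SE 0.12, adjusted p = 0.0383) were lower in KpCKO, and *Irf2bpl* (1.64, SE 0.30, adjusted p = 0.0170) and *Irf2bp2* (1.09, SE 0.14, adjusted p = 0.00595) were higher, while 8.57% of all genes were lower and 7.41% higher. Without culture 1 of KpCKO M1 the count was 2. In Con and in M2, 0 of the 14 differed by limma and by the methods' t-test, adjusted or not, with 0 and 2 at an unadjusted p under 0.05 by limma.

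Targets of IRF1 and IFNγ rose in 14 of 14 cases in M1 of either genotype, where 34.5% and 24.8% of all genes rose. *Cxcl9*, a chemokine induced by IFNγ, rose by 13.54 in WT, and in KpCKO, where it was not well above background in Con, it was at least 57504-fold higher. Folds given with "at least" are bounds of the main processing only, and alternatives gave smaller differences, as stated with the processing. *Gbp5*, a guanylate-binding protein, rose by 9.72 in WT. Between the genotypes, 4 of 14 were lower in KpCKO M1, among them *Nos2*, the inducible nitric oxide synthase (−1.50, SE 0.18, adjusted p = 0.00460), and *Il15* (−1.0, SE 0.25, adjusted p = 0.0425), while 8.57% of all genes were lower. This count was 2 without culture 1 of WT M1 or culture 2 of KpCKO M1 and 1 without either of the other arrays. In Con, 2 were lower, *Gbp2* (−1.14, SE 0.21, adjusted p = 0.0478) and *Cxcl9*, which was at least 6.71-fold lower in KpCKO, while 0.826% of all genes were lower, and the count was 1 with any 1 of the 4 arrays left out. In M2, 2 of the 14 rose and 2 fell in WT, and 3 rose and 1 fell in KpCKO. *Socs1*, the inhibitor of JAK kinases, rose by 6.18 and 5.90, and *Cd274*, which encodes PD-L1, by 2.47 and 1.94. *Il15* fell in both (−1.40 and −1.20) and the chemokine gene *Cxcl10* in WT (−3.20, adjusted p = 0.0448). The M2 count of 4 was 2 without culture 2 of WT Con or of WT M2, and in KpCKO 2 without culture 2 of KpCKO M2 and 1 without any of the other 3 arrays. Of the genes of the IL-4 response, 12 of 12 rose in M2 of either genotype, as *Irf4* did. *Arg1* rose by 10.38 in WT and 10.48 in KpCKO, and *Retnla*, not well above background in Con, was at least 6128-fold higher in WT and at least 2988-fold higher in KpCKO. *Retnla* thus passed the filter on dim probes only through a stimulated group, which favours a rise. In M2, the mannose receptor gene *Mrc1* was the 1 of these 12 that differed between the genotypes (−0.92, SE 0.14, adjusted p = 0.0298), and the call was lost with any 1 of the 4 arrays left out. In M1, 3 of the 12 were lower in KpCKO, and 1 of these, *Arg1*, was not well above background in either genotype. In Con, 1 was lower, again *Mrc1*, and over the 3 stimuli 6 were lower and 1 higher. Of all genes, 0.826% were lower in Con, 8.57% in M1 and 0.643% in M2, and 8.5% were lower and 8.6% higher over the 3 stimuli. This last count of 7 lay between 3 and 7 in the alternatives that kept all arrays.

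Targets of ISGF3 and IRF7 are the genes on which the products of *Irf9* and *Irf7* act. Of 16 listed, 14 had a probe and 13 passed the filter on dim probes. All 13 rose in M1 of either genotype, led by *Oasl1* (9.18 and 10.27) and by *Ifnb1*, the gene of interferon-β, at least 951-fold higher in WT and at least 464-fold in KpCKO. Being at background in Con of both genotypes, *Ifnb1* passed the filter only through a stimulated group, which favours a rise. In WT M2, 6 of 13 fell, where 8.2% of all genes fell, with *Ifit3* (−3.27, SE 0.49, adjusted p = 0.00775) and *Ifit1* (−2.96, SE 0.49, adjusted p = 0.0101) the largest. In KpCKO M2, 1 of 13 fell, *Ifit3* (−2.22, SE 0.49, adjusted p = 0.0369), and 1 rose, *Usp18* (2.16, SE 0.52, adjusted p = 0.0460), where 4.52% of all genes fell. The WT count was 0 without culture 1 of WT Con or culture 2 of WT M2, 3 without culture 2 of WT Con and 5 without culture 1 of WT M2. It was 3 with normexp, 1 without culture as a block and 10 with only the groups compared in the fit. In KpCKO M2 the count was 0 with any 1 of the 4 arrays left out.

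Between the genotypes, each of the 13 was lower in KpCKO by its mean in Con, M1 and M2, although *Ifnb1* was not well above background in Con of either genotype. The median log2 difference was −2.24 in Con, −1.48 in M1 and −0.90 in M2, beside medians of 0.0016, −0.087 and 0.019 for all genes. The values of *Irf7* itself were −1.97, −1.90 and −1.65. Over the 3 stimuli the median of the 13 was −1.52, beside −1.84 for *Irf7*. The test was passed by 4 of 13 in Con, 5 of 13 in M1 and 0 of 13 in M2 by limma, where 8 had an unadjusted p under 0.05 and the methods' t-test gave 2 at its unadjusted threshold. Of all genes, 0.826% were lower in Con, 8.57% in M1 and 0.643% in M2. *Rtp4* (−2.88, SE 0.50, adjusted p = 0.0410) and *Ifit3* (−2.83, SE 0.49, adjusted p = 0.0410) had the largest called differences in Con, and *Usp18* (−2.33, SE 0.52, adjusted p = 0.0306) and *Ifi44* (−2.30, SE 0.62, adjusted p = 0.0488) in M1. Over the 3 stimuli, 11 of 13 were lower, as were 8.5% of all genes, with *Ifi44* (−2.43, SE 0.36, adjusted p = 0.00591) and *Rtp4* (−2.26, SE 0.29, adjusted p = 0.00357) first. Lower over the 3 stimuli were also 2 of the 10 genes of the JAK-STAT list, 4 of the 18 sensor genes and 1 of the 14 partners. Of the 14 targets of IRF1 and IFNγ, 3 were lower, while 1 sensor gene and 2 partners were higher. In the alternatives that kept all arrays, calls in either direction over the 3 stimuli ran from 0 to 3 for the JAK-STAT list. They ran from 1 to 7 for the sensors, 3 to 6 for the partners and 1 to 5 for the targets of IRF1 and IFNγ. *Bst2*, a gene induced by interferon that is also listed as a dendritic cell marker, lay between 4.55 and 7.52 on the 12 arrays. The 6 other dendritic cell markers with a probe summed to 0.344 and 0.469 in WT Con, to 0.444 and 0.553 in KpCKO Con, and to 1.63 to 2.49 in WT M1 against 1.20 to 1.44 in KpCKO M1. Their part in the differences was not tested. The count in M1 was 0 without culture 1 or 2 of WT M1 or culture 1 of KpCKO M1 and 10 without culture 2 of KpCKO M1. In Con it was 1 without culture 2 of KpCKO Con and 0 without any of the other 3 arrays, and over the 3 stimuli it lay between 9 and 12. Without culture as a block the count was 0 in Con, 0 in M1 and 5 over the 3 stimuli. With normexp it was 1 in Con, 0 in M1 and 10 over the 3 stimuli, and with quantile normalization 5, 2 and 11. With only the groups compared in the fit it was 0 in Con and in M1, and with trended and robust variances 7 and 9.

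**Figure D4:**
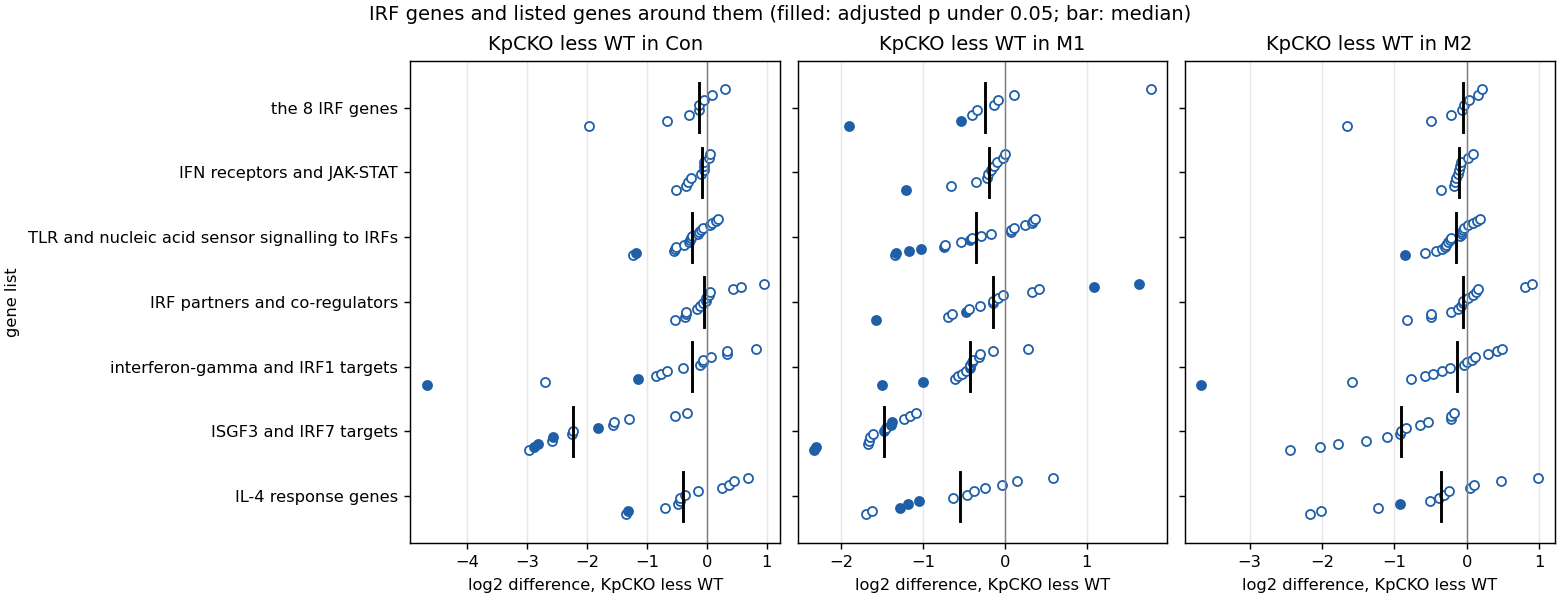
Differences between KpCKO and WT (horizontal axes, log2) in Con, M1 and M2 for the 8 IRF genes and for the genes of 6 lists (vertical axis). Each point is a gene, filled where its adjusted p was under 0.05, black bars are medians, genes not well above background are placed at their measured values, and each panel has its own range. The 13 targets of ISGF3 and IRF7 lie below 0 in all 3 panels, with medians of −2.24, −1.48 and −0.90.

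For each IRF gene, the tested genes with the most similar 12 levels were sought, by the root mean square difference of log2 levels after each gene was centred on its mean, among 22104 genes. The 3 nearest are named where they have a symbol. Closest to *Irf7* were *Usp18* (0.63 log2 units), the isopeptidase that removes ISG15, and *Casp4* (0.73). Closest to *Irf1* were *Ggct* (0.28) and *Tnfaip3* (0.31), the inhibitor of NF-κB signalling also known as A20. *Kpna3* (0.15), *Snx10* (0.15) and *Prdx5* (0.18) were closest to *Irf8*, and *Ncf1* (0.18), a subunit of the phagocyte oxidase, *Rp2* (0.21) and *Dock11* (0.23) to *Irf9*. *Susd4* (0.88) and *Scn3a* (1.29) were closest to *Irf4*, *Arhgap23* (0.14), *Idnk* (0.16) and *Nub1* (0.16) to *Irf5*, and *Zfp710* (0.15) and *Riox2* (0.16) to *Irf2*. The ribosomal gene *Rps3a1* (0.045), *Chfr* (0.053) and *Ptcd3* (0.060) were closest to *Irf3*. A gene that hardly moves is near many others by this measure, as for *Irf3*, and a likeness over 12 arrays that share stimuli and slides is a description. Among the 8 genes themselves, *Irf2* and *Irf5* were nearest to each other (0.33), *Irf1* was nearer to *Irf8* (0.75) than to *Irf7* (1.12), and *Irf4* was at least 3.16 from each of the others.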

How the data were processed

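RNA of BMDMs was measured on 12 one-colour arrays. The authors deposited the output of Agilent Feature Extraction 10.7.3.1, namely background-subtracted intensity with spot and local background intensities and flags for 43379 spots other than controls. Arrays had not been scaled to each other. A deposited table of log2 values, made by the authors with GeneSpring, followed log2 intensity less the 75th percentile, centred on the probe (slopes from 0.99962 to 1.0004 over 40749 probes), and served as an alternative.

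Flagged outlier spots were removed, spots were averaged by probe, and log2 intensities were set relative to the 75th percentile. Of 41174 probes, 26690 were named by accession, as 18217 symbols, and the brightest stood for its gene. The filter kept 22391 genes whose signal was well above background on the 2 arrays of any 1 group, all 8 IRF genes included. One model of the 6 groups with culture as a block was fitted by limma 3.58.1 in R 4.3.3. It had 5 residual and 1.92 prior degrees of freedom. The model was also run on simulated arrays with independent noise and no effect of culture or mouse. That run could not test the culture block or the repeated use of a mouse. Tables and plots used Python 3.11.15, pandas 2.3.3 and matplotlib 3.10.9. For a gene at background on both arrays of one group, "at least" marks a fold computed with that group's signal raised, array by array, to the lowest signal well above background if it lay below it. That lowest signal is taken over all probes of the array and need not apply to the gene's own probe. Over the alternatives, the log2 rise went down to 12.7 for *Cxcl9* in KpCKO M1. It went down to 9.43 and 8.36 for *Retnla* in WT and KpCKO M2, and to 6.77 and 5.52 for *Ifnb1* in WT and KpCKO M1. The genotype difference of *Cxcl9* in Con shrank to −0.81.

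The pairing by culture comes from the design given with the series. Deviations from the group means correlated between groups of the same culture at r = 0.1607 to 0.5965 in 15 pairs of groups. The alternatives are named in the closing section. The 8 genes, the lists of pathway genes and cell markers, and the rule from which genes were named (in a list and comparison at most the 2 largest called rises and falls, and for each IRF gene the 3 genes nearest in centred levels, where they have a symbol) were chosen with earlier results of these data known. The number of arrays limits the precision. Coordinates of the array design are of another build than the promoter table and were not used here. *Mx1*, *Mx2*, *Cd68*, *Ly6g* and *Clec9a* of the lists were not analysed here. A result for 1 further gene of the lists is not reported here.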

Additional observations from a re-analysis of the deposited data

Results flagged for a closer look

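The difference of *Irf8* between KpCKO and WT had opposite signs in Con and M1 in each culture. In Con it was 0.087 (cultures 0.038 and 0.14) and in M1 −0.54 (cultures −0.40 and −0.68). The test of the difference of the responses did not pass (limma, adjusted p = 0.192), and without culture 2 of KpCKO Con the value in Con was −0.019.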

How the results depend on the processing

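Counts of called IRF genes and single values were recomputed with other normalizations, background corrections, filters, uses of probes, models and tests, and with 1 array left out. Of 2765 single gene values, 2260 kept direction and side of the threshold, 470 were no longer called, 17 became called and 18 changed sign. *Irf4* could not be tested where a gene had to be well above background on all 12 arrays. With 2 arrays a group, leaving 1 out gives a lone array that is assumed to vary like the others. The cause of these changes was not tested.

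For M1 against Con, the 6 IRF genes called in WT became 3 by the methods' t-test after Benjamini-Hochberg adjustment, and the 6 in KpCKO became 0, or 3 unadjusted. For M2 against Con in WT, the count of 2 became 1 with normexp, without a filter on dim probes or with the mean of the probes, 4 with trended and robust variances or with only the groups compared in the fit, and 0 by the adjusted t-test. In KpCKO the count of 1 became 2 with quantile normalization, trended variances or the unadjusted t-test, and 0 with only the groups compared or the adjusted t-test. Between the genotypes, the count of 0 in Con became 1 with trended variances or the unadjusted t-test. The count of 2 in M1 became 0 with quantile normalization, normexp, no filter, only the groups compared and the t-test, adjusted or not. Over the 3 stimuli the count of 2 became 1 with normexp.

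Without the culture as a replicate block, the counts were 5 and 5 for M1 in WT and KpCKO, 1 and 1 for M2, and 0 for the genotypes in Con, M1 and M2, over the 3 stimuli and for both differences of the responses.

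With 1 array left out, the counts ran from 6 to 7 (M1 in WT), 5 to 6 (M1 in KpCKO), 0 to 1 (M2 in WT), 0 to 0 (M2 in KpCKO), 0 to 1 (genotypes in M1) and 2 to 3 (genotypes over the 3 stimuli), and were 0 in Con, in M2 and for the responses.

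Signs changed for *Irf3* in M1 under quantile normalization (−0.34 in WT, −0.23 in KpCKO). With normexp, the difference of *Irf4* in KpCKO M1 became 0.13 and the difference of the M1 responses of *Irf7* became −0.0099, and with quantile normalization the genotype difference of *Irf8* in M2 became −0.0048. With 1 array left out, the sign depended on the array left out for *Irf4* in KpCKO M1 (−1.26 to 1.06), for the genotype difference of *Irf4* in Con (−1.46 to 0.86), M1 (−0.21 to 3.77), M2 (−0.30 to 0.63) and over the 3 stimuli (−0.11 to 1.21), for that of *Irf8* in Con (−0.019 to 0.19) and M2 (−0.028 to 0.0995), and for the difference of the M1 responses of *Irf7* (−0.71 to 0.86).

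The median of all genes for M1 against Con in WT was 0.13, and it was −0.079 with quantile normalization and 0.40 with normexp. For M2 in WT, 1930 genes were higher and 1835 lower, and with normexp 1028 and 646. Between the genotypes in M2 these were 287 and 144, and with normexp 124 and 101.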
